A study of Homo sapiens with 6 samples.

Results

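Between the 6 h and 24 h samples, control THP-1 cells showed higher RNA of genes for cholesterol and fatty acid synthesis, for the response to low oxygen and for mitosis, and lower RNA of genes for DNA replication. THP-1 is an established line of human monocytic leukaemia cells that often stands in for monocytes in the laboratory. The comparison is between the control library of 24 h and the control library of 6 h, over the 13028 protein-coding genes with a value in all 6 libraries of the series, out of 60325 genes in the deposited tables. The series as a whole set THP-1 cells given recombinant human interleukin-6 (IL-6) beside controls, each sampled at 6, 24 and 48 h, to follow what IL-6 does to gene expression. The labels call the control cells ctrl and do not say what was added to them, nor how densely they were seeded, when their medium was changed or whether the times came from 1 culture. No genotype or transgene is named for either group, and all 6 libraries come from this single line.

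Each condition had 1 library, so the control interval has no replicate and no p-value. Each gene's deposited log2 values were centred on their mean, and a difference of 1 is 2-fold. The same interval in the IL-6 libraries shares no library with the control interval and is given beside it as a check of direction, although those cells also received IL-6. A model in limma over all 6 libraries, with time and agent as terms, tested the mean change from 6 to 24 h of both cultures together, not that of the control alone. With 1 library per time and agent, the spread behind its adjusted p-values is how far the difference between agents varied over the times. This mixes any change of the IL-6 effect with time and technical spread, and it is no spread between replicates.

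Levels, in an arbitrary unit, were recovered in part from the deposited values, and 7104 of the 13028 genes passed a minimum mean level of 10 in the 2 control libraries. Of these, 5252 passed by a recovered level, and 1852 had no recovered level and passed because they were treated as high. These are the genes counted below. List members called measured are those among them, and further members had values in all 6 libraries but fell below the minimum. The lists were chosen with earlier results of these data known, so their medians and counts are a description. A value was listed for 22000 genes at 6 h and 23108 at 24 h in the control libraries, and for 22209 to 22733 in the 3 IL-6 libraries. The depth in reads is unknown. All 10 monocyte markers chosen as a check, CD14, LYZ, CSF1R and SPI1 among them, had values in 6 libraries. For 9 of them no level was recovered, so they passed the minimum as genes treated as high, and ITGAM, the only one with a recovered level, was below 10. The haemoglobin gene HBB, the platelet genes PF4 and PPBP, the T cell gene CD3E and the B cell gene MS4A1 were listed in no library. Among the 4 lists of markers of other cell types, NKG7, a granule membrane protein gene of natural killer cells, was the only member that passed the minimum, as a gene with no recovered level, with 0.57 in the control interval and 1.25 in the IL-6 interval on the log2 scale (limma adjusted p = 0.026). The part of other cells in the results was not tested.

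Several of these gene groups are controlled by well-known switches. SREBP transcription factors, released from the endoplasmic reticulum when membrane cholesterol is low, switch on cholesterol synthesis and uptake, and hypoxia-inducible factors switch on genes for glycolysis, oxygen-sparing metabolism and blood vessel growth. In dividing cells, replication genes are expressed from late G1 into S phase and mitotic genes in G2 and mitosis, the latter partly through the CHR element, a short motif near the start of many mitotic genes. ATF4 raises genes for amino acid supply in the integrated stress response.

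Stretches to show were sought in the cholesterol, mitosis and hypoxia lists only. Of members at least 2-fold higher at 24 h whose upstream bases contain the motif searched, those with the largest control differences are shown. The cholesterol list had 0 such members, and the clock list had 1, which is not shown. The stretches were read from RefSeq (GRCh38.p14), on the strand of the gene, 5′ to 3′, with the matches in capitals. TTTGAA is the core of the CHR element and ACGTG the core of the hypoxia response element, and either strand could match.
PLK1: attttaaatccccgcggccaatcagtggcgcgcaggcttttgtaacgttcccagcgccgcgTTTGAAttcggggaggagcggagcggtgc
CCNB2: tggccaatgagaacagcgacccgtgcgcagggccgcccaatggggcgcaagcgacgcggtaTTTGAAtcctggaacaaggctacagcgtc
CDC20: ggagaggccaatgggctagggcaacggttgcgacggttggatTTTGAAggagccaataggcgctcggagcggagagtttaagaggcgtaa
P4HA1: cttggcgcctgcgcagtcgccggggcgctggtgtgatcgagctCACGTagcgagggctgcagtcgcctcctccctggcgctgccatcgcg
BNIP3: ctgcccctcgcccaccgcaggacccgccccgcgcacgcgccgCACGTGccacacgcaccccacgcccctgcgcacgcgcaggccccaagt

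The PLK1 stretch is chr16:23678799-23678888 and the CCNB2 stretch chr15:59105056-59105145, both on the plus strand and ending at the base before the RefSeq start. The CDC20 stretch is chr1:43358874-43358963 on the plus strand. The P4HA1 stretch is chr10:73096906-73096995 and the BNIP3 stretch chr10:131982010-131982099, both on the minus strand. In BNIP3 the capitals hold a match on each strand, which overlap.

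Of the 7104 genes, 123 were at least 2-fold higher at 24 h than at 6 h in the control libraries (1.73% of those counted) and 10 at least 2-fold lower (0.141%), together 1.87%. The minimum was set on the mean of the 2 libraries compared, so a gene could pass through the higher one alone: 46 of the 123 were below 10 at 6 h and 4 of the 10 below 10 at 24 h, while 25 and 3 had no recovered level. With the minimum set on the 48 h libraries instead, which are not compared here, 134 were higher and 9 lower. The same direction was seen in the IL-6 interval for 118 of the 123 and 8 of the 10. Both intervals passed 2-fold for 68 of the higher genes (0.957% of those counted) and 2 of the lower genes. In the IL-6 interval 143 genes were at least 2-fold higher (2.01%) and 20 lower (0.282%). By limma, 94 of the 123 and 4 of the 10 passed an adjusted p of 0.05 for the mean of both cultures, while 2.67% of the 7104 genes passed as higher and 0.535% as lower. The control libraries that chose these genes are also in the limma fit. Their passing is therefore in part a result of that choice and is no independent check.

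Both counts turn on settings. With the libraries set to equal medians, which lowers every control difference by 0.16, 80 genes were higher and 33 lower. The recovery of levels was revised after values had been seen, because genes with 1 library at the lowest possible value had been given levels that were too high. Without that revision the counts were 154 and 30, and the share of calls with the same direction in the IL-6 interval was 85.9% in place of 94.7%. The limma fit called 274 genes higher (2.04% of 13414) and 44 lower (0.328%) over all genes tested. With no trend of the variance on level it called 0 and 0, with 1511 and 419 at an unadjusted p under 0.05, against 1742 and 675 in the fit with the trend. With equal library medians it called 179 and 116.

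Across all 7104 genes the median control difference was 0.10, and 4378 genes (61.6%) were higher at 24 h. The differences of both intervals had the same sign for 67.9% of genes, with a Pearson r of 0.59 and a Spearman rho of 0.52 across genes, which are not independent replicates. The median was -0.04 in the shortest of 4 equal classes of gene length in the tables and 0.17 in the longest, so the median moved with length. The part of length in the results below was not tested.

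**Figure D1:**
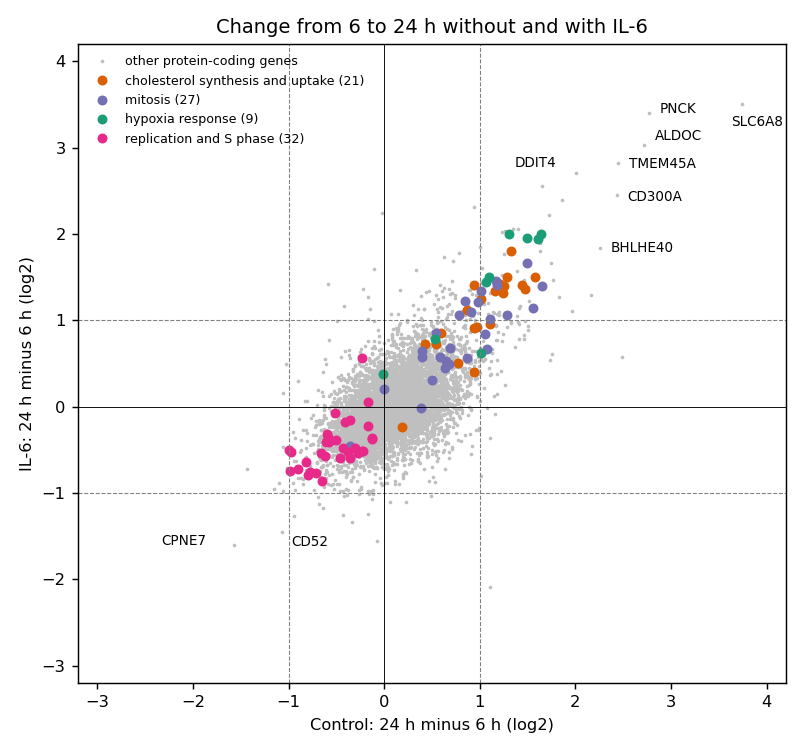
Each point is 1 of 7104 protein-coding genes, with the log2 difference of 24 h minus 6 h in the control libraries on the horizontal axis and in the IL-6 libraries on the vertical axis, 1 library per time and culture. Dashed lines mark 2-fold, and 4 gene lists are coloured: cholesterol, mitosis and hypoxia genes lie mostly in the upper right and replication genes mostly in the lower left.

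The largest difference was in SLC6A8, the creatine transporter gene (chromosome X). Its deposited log2 values were -1.62, 2.12 and -1.45 in the controls of 6, 24 and 48 h, and -1.51, 1.99 and 0.47 with IL-6. Both 24 h libraries stood above all others, and the control library of 48 h was back within 0.18 of that of 6 h. Its level was 3.27 at 6 h and 43.7 at 24 h, so it passed the minimum through the 24 h library. The control difference of 3.74 is 13.4-fold, the IL-6 difference was 3.50, and limma gave 3.62 ± 0.47 (SE, adjusted p = 0.019). PNCK, a calcium/calmodulin-dependent kinase gene, overlaps SLC6A8 by 1085 bases on the other strand, and as the libraries do not mark strand, reads of the 2 genes cannot be told apart there. It had -0.94, 1.83 and -0.98 in the controls and -1.85, 1.55 and 0.39 with IL-6.

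ALDOC, the aldolase C gene of glycolysis (chromosome 17), had log2 values of -1.25, 1.47 and -0.60 in the controls and -1.59, 1.43 and 0.53 with IL-6. Its control difference was 2.72 and its IL-6 difference 3.03 (limma adjusted p = 0.0081). TMEM45A, a transmembrane protein gene, differed by 2.44 and 2.83 in the control and IL-6 intervals, and CD300A, an inhibitory receptor gene of myeloid cells, by 2.43 and 2.45. For each of these genes the 2 libraries of 24 h were the highest of the 6.

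BHLHE40, a transcriptional repressor gene of the clock and of the response to low oxygen, had -1.60, 0.66 and -0.73 in the controls and -0.69, 1.14 and 1.22 with IL-6. DDIT4, an inhibitor of the growth kinase mTORC1, had -1.35, 0.65 and 0.12 in the controls and -1.70, 1.01 and 1.27 with IL-6. In both genes the control value was lower at 48 h than at 24 h, and the IL-6 value was not. BHLHE40 overlaps its antisense gene BHLHE40-AS1, and ALDOC overlaps a further coding gene and a lncRNA gene in the tables, so their values share this limit. That coding gene, ENSG00000258472, lies on the same strand as ALDOC and spans all of it (3834 bases). Its control difference was -3.28, opposite to that of ALDOC. How reads were divided between ALDOC and ENSG00000258472 was not tested. The other named genes that were higher in both intervals were MYBPH, DNAJC5B, the alpha-tubulin gene TUBA1A, the nuclear receptor gene PPARD and SH2D3C, with control differences from 1.76 (SH2D3C) to 2.17 (MYBPH) and IL-6 differences from 1.11 (DNAJC5B) to 2.39 (TUBA1A). TUBA1A shares sequence with other tubulin genes and overlaps a gene on the other strand, as SH2D3C does, and their values are uncertain. Of the named higher genes, PNCK, TMEM45A, CD300A, BHLHE40, MYBPH, DNAJC5B, PPARD and SH2D3C were also below a level of 10 in the control library of 6 h.

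The 2 genes at least 2-fold lower in both intervals were CPNE7, a calcium-dependent membrane-binding copine gene, and CD52, which encodes a small surface glycoprotein of leukocytes. CPNE7 had log2 values of 0.77, -0.80 and -0.01 in the controls and 0.81, -0.80 and 0.03 with IL-6. CD52 had 0.81, -0.27 and -0.18 in the controls and 0.73, -0.72 and -0.36 with IL-6. In both genes the 6 h libraries were the 2 highest. The other 8 lower genes, named after their values were seen, were NUDT8, BEX1, LGALS3, POLR1G, ATPSCKMT, NME1-NME2, CMC4 and IFI30, with control differences from -1.44 (NUDT8) to -1.01 (IFI30). LGALS3 encodes galectin-3 and IFI30 a lysosomal thiol reductase, and NME1-NME2 is a readthrough of neighbouring genes whose reads cannot be told apart from theirs. CPNE7, POLR1G, ATPSCKMT and CMC4 were below a level of 10 in the control library of 24 h and passed the minimum through that of 6 h.

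**Figure D2:**
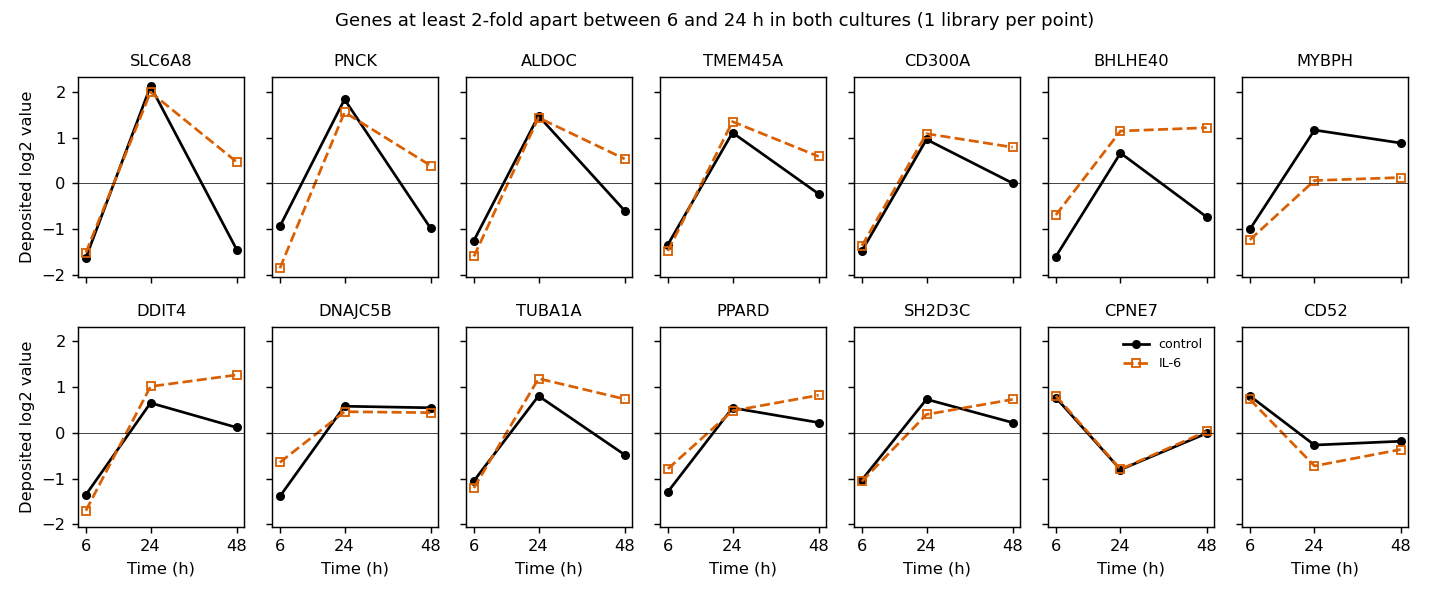
Deposited log2 values (vertical axis) at 6, 24 and 48 h (horizontal axis) for the 12 named genes higher and the 2 lower in both intervals, with filled circles for control and open squares for IL-6, 1 library per point. SLC6A8 is near its 6 h value again in the control library of 48 h, and CPNE7 follows nearly the same course in both cultures.

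By 48 h most of these differences had become smaller in the control culture. Of the 123 higher genes, 111 had a lower value at 48 h than at 24 h, 34 were still at least 2-fold above 6 h and 5 were at or below the 6 h value. Of the 10 lower genes, 7 had a higher value at 48 h than at 24 h. The genes were chosen for their value at 24 h, so these counts are a description.

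Genes of cholesterol synthesis and uptake were higher at 24 h in the control for all 21 measured members, with a median difference of 1.01 beside 0.10 for all genes. Of the 21, 11 were at least 2-fold higher, against 8 with equal library medians. For this list and those below, the shares over all 7104 genes were 1.73% at least 2-fold higher and 61.6% positive. By limma, 2.67% of all 7104 were called higher and 0.535% lower. The IL-6 interval had a median of 1.24, with 20 of 21 positive, and limma called 18 higher and 0 lower. LSS, the lanosterol synthase gene, had log2 values of -0.66, 0.92 and -0.23 in the controls and -0.71, 0.79 and -0.11 with IL-6. The 2 libraries of 24 h were the highest. DHCR7, for a late step of synthesis, differed by 1.44, HMGCS1, for an early step, by 1.32 and MSMO1, a sterol demethylation gene, by 1.28. At 48 h the control median above 6 h was 0.39.

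In the 9 measured fatty acid synthesis genes the control median was 0.85 and the IL-6 median 1.002, with all 9 positive in each, and limma called 6 higher and 0 lower. The desaturase genes FADS2 and SCD differed by 1.63 and 1.46 in the control, and ACSS2, which makes acetyl-CoA from acetate, by 1.26. SREBF1, which encodes SREBP-1, differed by 1.06 in the control and 0.55 with IL-6 and missed the threshold (limma adjusted p = 0.054). FASN, the fatty acid synthase gene, differed by 0.85 (limma adjusted p = 0.021). NPC1, which exports cholesterol from lysosomes, differed by 1.39 and was the only one of 28 lysosome list genes at least 2-fold higher. It was below a level of 10 in the control library of 6 h. That list's median was 0.22 in the control and 0.07 with IL-6, and limma called 2 higher and 0 lower.

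Hypoxia response genes had a control median of 1.10 over 9 measured members, 7 of them at least 2-fold higher (4 with equal library medians), and an IL-6 median of 1.503. Of the 7, 2 were below a level of 10 in the control library of 6 h and passed the minimum through that of 24 h. Limma called 7 higher and 0 lower. Of all 7104 genes, 1.73% were at least 2-fold higher and 2.67% were called higher by limma. NDRG1, a stress-responsive gene raised by low oxygen, had -0.78, 0.86 and 0.13 in the controls and -1.43, 0.57 and 0.65 with IL-6. P4HA1, for a collagen prolyl hydroxylase, had -0.64, 0.97 and -0.32 in the controls and -0.85, 1.09 and -0.24 with IL-6. BNIP3, a gene of mitochondrial clearance, had -0.45, 1.04 and -1.02 in the controls and -0.67, 1.27 and -0.16 with IL-6. P4HA1 and BNIP3 peaked at 24 h in both cultures, and BNIP3 in the control was lower at 48 h than at 6 h. VEGFA, the vascular growth factor gene, differed by 1.30 at 24 h and by 1.43 at 48 h in the control, and KDM3A, a histone demethylase gene, by 1.10 at 24 h.

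Glycolysis genes differed less, with a control median of 0.23 over 14 members and limma calling 2 higher and 0 lower. ALDOC, whose overlap with another coding gene is given above, was the only member at least 2-fold higher. SLC2A1, the glucose transporter gene, differed by 0.63 in the control and 0.77 with IL-6 (limma adjusted p = 0.019), ALDOA by 0.41 in each, and PKM by 0.38 and 0.16.

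**Figure D3:**
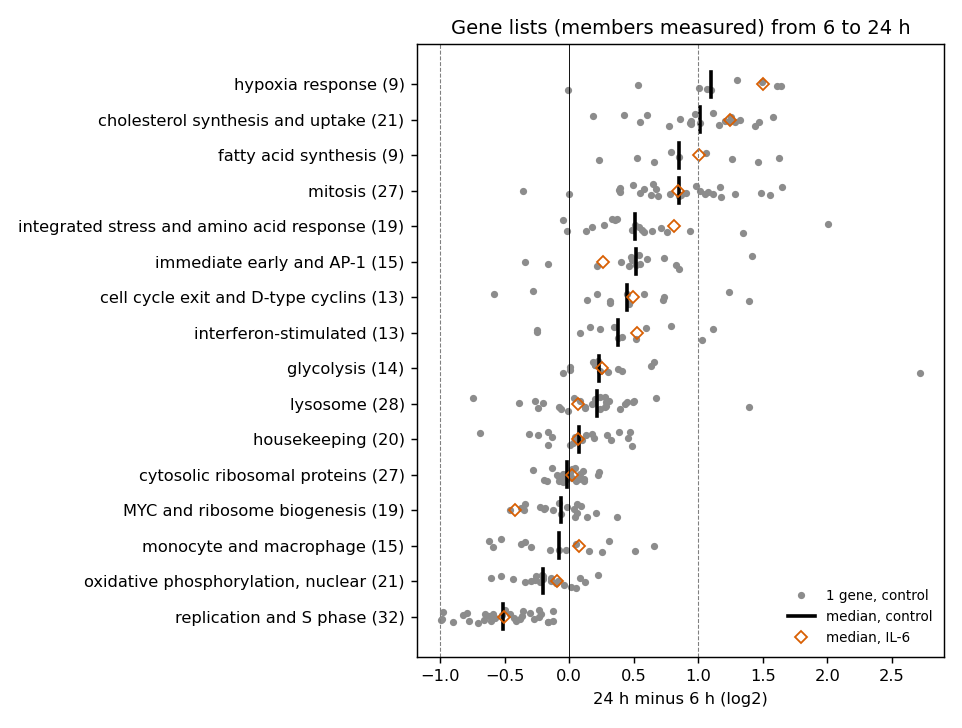
Log2 difference of 24 h minus 6 h in the control libraries (horizontal axis) for 16 gene lists, with grey points for single genes, black bars for the control median and open diamonds for the IL-6 median, and the number of members measured in brackets. Hypoxia, cholesterol, fatty acid and mitosis lists have medians of 0.85 or more, and the replication list lies wholly below 0.

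Mitotic genes were higher at 24 h in the control for 26 of 27 measured members, with a median of 0.85, and 10 were at least 2-fold higher, against 6 with equal library medians. With IL-6 the median was 0.84 and 25 were positive, and limma called 15 higher and 0 lower. Of all 7104 genes, 1.73% were at least 2-fold higher in the control and 2.67% were called higher by limma. CCNB1, the cyclin B1 gene, had -0.84, 0.81 and -0.17 in the controls and -0.61, 0.79 and 0.02 with IL-6. PLK1, a mitotic kinase gene, had -0.73, 0.82 and -0.04 in the controls and -0.70, 0.43 and 0.22 with IL-6. The 24 h libraries were the 2 highest in both genes. The mitotic kinesin gene KIF20A differed by 1.49, PTTG1, for securin, by 1.28 and the kinetochore gene CENPF by 1.18 in the control. By 48 h the control median above 6 h was 0.11.

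Replication and S phase genes were lower at 24 h for all 32 measured members in the control, with a median of -0.51, and for 30 of 32 with IL-6, with a median of -0.51. None was 2-fold lower, against 4 with equal library medians (CDC45, PCNA, CCNE2 and CLSPN), and limma called 7 lower and 0 higher. Of all 7104 genes, 0.141% were at least 2-fold lower and 0.535% were called lower by limma. PCNA, the sliding clamp gene, had 0.47, -0.52 and 0.05 in the controls and 0.41, -0.33 and -0.07 with IL-6. CDC45, of the replicative helicase, had 0.42, -0.57 and -0.23 in the controls and 0.49, -0.01 and -0.10 with IL-6. The 6 h libraries were the 2 highest in both genes. CCNE2, for cyclin E2, differed by -0.98 in the control and -0.52 with IL-6 and missed the threshold (limma adjusted p = 0.050). In bulk RNA, fewer cells in a phase and less RNA per cell cannot be told apart.

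Among 13 genes of cell cycle exit and D-type cyclins, 11 were positive in the control, with a median of 0.45, and limma called 4 higher and 0 lower. Of all 7104 genes, 61.6% were positive and 2.67% were called higher by limma. CDKN1A, which encodes the CDK inhibitor p21, had -1.22, 0.18 and 0.04 in the controls and -0.99, 1.06 and 0.93 with IL-6. CCNG2, a cyclin gene linked to cell cycle arrest, differed by 1.24 in the control and 2.02 with IL-6. CCNG2 had a level of 6.69 in the control library of 6 h, below the minimum level. The 2 libraries of 6 h were the lowest for each gene. The p53 target list had a median of 0.48 over 4 members, with 0 called in either direction, and the 8 measured histone genes a median of 0.25, with 0 called.

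**Figure D4:**
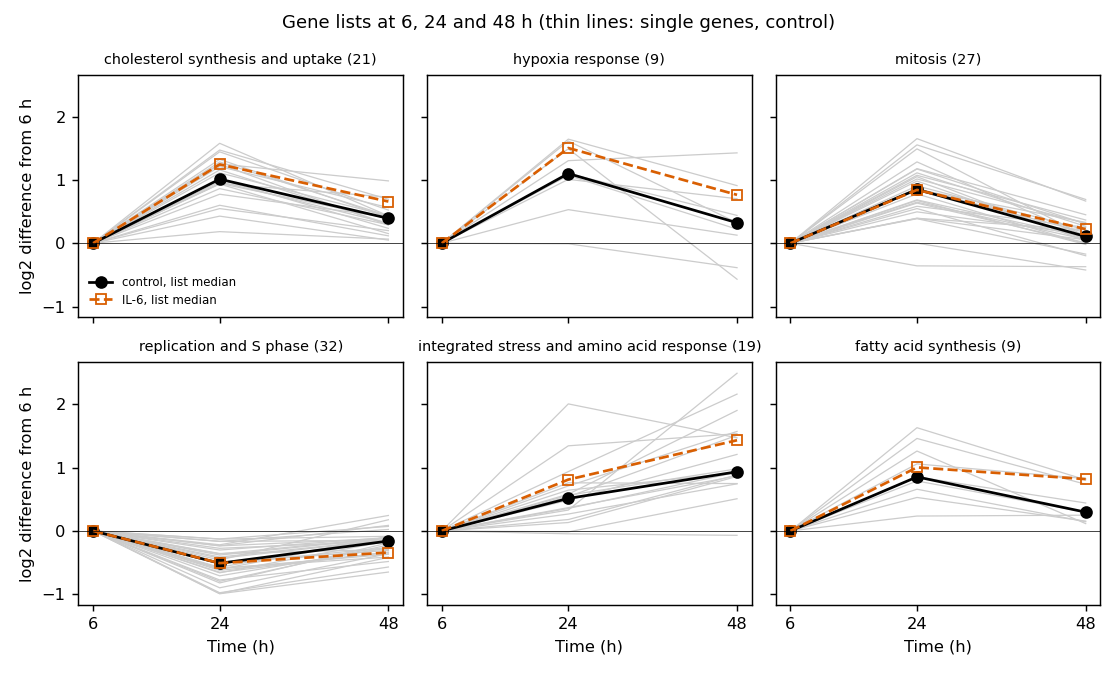
Log2 difference from the 6 h library of the same culture (vertical axis) at 6, 24 and 48 h (horizontal axis) for 6 gene lists, with thin grey lines for single genes in the control, filled circles for the control median and open squares for the IL-6 median. The cholesterol, hypoxia, mitosis and fatty acid medians are highest at 24 h, the replication median is lowest at 24 h, and the integrated stress median is highest at 48 h.

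Integrated stress and amino acid genes had a control median of 0.51 over 19 members, 17 of them positive, and an IL-6 median of 0.81. Limma called 10 higher and 0 lower, beside 2.67% and 0.535% of all 7104 genes. Besides DDIT4, NUPR1, a stress-induced chromatin protein gene, differed by 1.34 in the control and 2.06 with IL-6. NUPR1 was below a level of 10 in the control library of 6 h. PHGDH, the first enzyme of serine synthesis, had -1.15, -0.22 and 1.01 in the controls and -1.25, 0.13 and 1.49 with IL-6, and so stood highest at 48 h in both. The list's control median above 6 h was 0.93 at 48 h. The 13 aminoacyl-tRNA synthetase genes, which charge tRNAs and include ATF4 targets, had medians of 0.29 at 24 h and 0.90 at 48 h in the control, and limma called 2 higher at 24 h, AARS1 (0.95 in the control) and CARS1 (0.86), and 0 lower.

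Of 15 immediate early and AP-1 genes, 13 were positive in the control, with a median of 0.51 and an IL-6 median of 0.26, and limma called 2 higher and 0 lower. These were BTG2, an antiproliferative gene that differed by 1.42 in the control, and JUND, an AP-1 subunit gene that differed by 0.83. BTG2 had a level of 7.8 in the control library of 6 h, below the minimum of 10. FOS differed by 0.74 in the control and -0.02 with IL-6. Of 13 interferon-stimulated genes, 11 were positive, with a median of 0.38, and limma called 2 higher and 0 lower, the transcription factor gene IRF7 (1.03 in the control, 1.61 with IL-6) and IFITM1 (0.79 and 1.78), which encodes an antiviral membrane protein and has close paralogs. STAT2 differed by 1.12 in the control and 0.53 with IL-6 and missed the threshold. IRF7 and STAT2 were the only members at least 2-fold higher, and both were below a level of 10 in the control library of 6 h. Neither was 2-fold higher with equal library medians.

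Monocyte and macrophage genes had a control median of -0.08 over 15 members, 6 positive and 9 negative, and limma called 0 in either direction. S100A9 and S100A12, calgranulin genes, differed by -0.62 and -0.59 in the control and by 0.55 and 1.42 with IL-6. LYZ, the lysozyme gene, differed by -0.53 and -0.52, and CSF1R, the receptor gene for the growth factor CSF1, by 0.66 and 0.27. ITGAL, the integrin alpha L gene of leukocyte adhesion, differed by 1.41 in the control and 0.95 with IL-6 (limma adjusted p = 0.0081) and was the only 1 of 10 integrin and adhesion genes called. NCF1, a subunit gene of the phagocyte oxidase with near-identical pseudogenes and so uncertain, differed by 1.19 in the control and 0.86 with IL-6 (limma adjusted p = 0.043), the only 1 of 5 oxidase genes called.

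In several other lists limma called 1 gene or none in each direction. The ER chaperone list (18 members, median -0.01) had EDEM1, for degradation of misfolded proteins, called higher and SDF2L1, a chaperone gene, called lower, with control differences of 0.94 and -0.71. The matrix protease list (7 members, median 0.04) had the sheddase gene ADAM10 called higher, with 0.52 in the control, and the circadian clock list (5 members, median 0.39) had BHLHE40. No member was called among cytosolic heat shock chaperones (14, median -0.12), NRF2 genes (11, median -0.06), metallothioneins and zinc genes (6, median 0.01), autophagy (10, median 0.18), LXR targets (5, median 0.29), glucose-sensing arrestins (4, median 0.23) or NF-kB subunits and feedback genes (8, median 0.16).

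The same held for cytokines and chemokines (4, median 0.28), MHC class II (6, median 0.18), MHC class I (11, median 0.32), myeloid lineage factors (15, median 0.20), BCL2 family (7, median 0.14), iron handling (8, median 0.20) and IL-6 receptor and STAT3 feedback genes (11, median 0.37). Nor was any called among MYC and ribosome biogenesis genes (19, median -0.07), cytosolic ribosomal proteins (27, median -0.02), nuclear (21, median -0.20) and mitochondrial (13, median -0.16) genes of oxidative phosphorylation and housekeeping genes (20, median 0.08). Of the ribosomal protein genes 12 were positive, and 2 with equal library medians, so their direction depends on the scaling. B cell, erythroid and platelet, and epithelial and fibroblast lists had 0 members at the level of 10. In all, 44 of the 123 higher genes were in a list and 79 in none.

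Motifs were counted in the 250 bases before the RefSeq start of list genes, on both strands, beside the 5863 counted genes with a RefSeq match. TTTGAA was found in 10 of 21 mitosis genes (47.6%), against 8.31% of the 5863, and in 4 of the 8 matched genes at least 2-fold higher. ACGTG was found in 3 of 5 hypoxia genes (60.0%) against 25.5%. The sterol element TCACNCCAC was found in 1 of 16 cholesterol genes (6.25%) against 0.921%, and in 0 of the 9 at least 2-fold higher. TTTGGCGC, an E2F-type site, was found in 3 of 28 replication genes (10.7%) against 1.04%.

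For the other motifs, TGATGNAA was found in 1 of 16 integrated stress genes (6.25%) against 1.33%, the core of the interferon-stimulated response element in 4 of 9 interferon genes (44.4%) against 2.20%, and TGACGTCA in 1 of 13 immediate early genes (7.69%) against 3.19%. CACGTG was found in 7 of 18 lysosome genes (38.9%) and 1 of 4 clock genes (25.0%) against 9.69%. The kappa B site was found in 3 of 7 NF-kB genes (42.9%) against 27.4%, and TGACNNNGC in 3 of 9 NRF2 genes (33.3%) against 12.8%. CACGTG holds ACGTG, so these matches overlap. These are matches of letters and were not tested against chance, and several of the lists are small and hold genes known to be controlled through such sites.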

How the data were processed

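Total RNA of 6 THP-1 libraries was amplified with SMART-Seq v4, which primes on poly(A) tails, and made into libraries with Nextera XT, per the labels' protocols; the strand is not marked. The deposited values are log2 values that the authors had centred on each gene, as the values show. The build was GRCh38 (hg38) per the submitters' processing notes. The choice of aligner, counting program and normalization is not given in the sources used here, and no read counts were used, so counting error is unknown.

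After 1 offset per library, values were whole multiples of a step taken as 0.001, which gave levels for 15469 of 17388 genes with 6 values. The other 1919 were treated as high. The tolerance (4e-07 in place of 6e-07 above 5000 steps), the setting to 0 of 19 genes with 3 or more libraries at the floor of 0.01, and a step for 152 genes with 1 library there were set after values had been seen. The first form of the recovery is kept as an alternative.

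Control 24 h minus 6 h was counted at 2-fold for protein-coding genes whose mean level reached 10. limma 3.58.1 (R 4.3.3) fitted time and agent over all 6 libraries for 13414 genes whose mean level reached 1, with robust empirical Bayes and a variance trend on level, with 2 residual degrees of freedom, and Benjamini-Hochberg adjustment at 0.05. The scripts were tested on simulated data. Named genes were the 12 highest and 12 lowest control differences among genes past 2-fold in both intervals, of which only 2 lower ones existed, up to 4 each way with opposite signs, and up to 5 members of each list. The members, the 43 lists and the motifs were chosen with earlier results of these data known. Other scalings, level minimums, pseudocounts and limma settings were tried. Values of some list members and markers are not reported here.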

Additional observations from a re-analysis of the deposited data

Results flagged for a closer look

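Some results had opposite signs in the control and IL-6 intervals. Each interval is 1 library minus 1 library, and the difference between the intervals was not tested. Among genes at least 2-fold apart in the control, PTGS1, the cyclooxygenase 1 gene, differed by 1.16 in the control and -0.08 with IL-6, AP1G1, an adaptor gene of vesicle coats, by 1.11 and -0.36, and VPS37B, a gene of endosomal sorting, by 1.08 and -0.01. The gene listed as ENSG00000260861, which has no symbol in the tables, differed by 1.11 in the control and -2.09 with IL-6. ATPSCKMT differed by -1.06 and 0.16, and CMC4 by -1.02 and 0.49. All 6 overlap other genes listed in the tables, CMC4 with MTCP1 and ENSG00000260861 with SIRPB1 and SIRPD among them, so reads may be shared. AP1G1, VPS37B and ENSG00000260861 were below a level of 10 in the control library of 6 h. ATPSCKMT and CMC4 were below it in that of 24 h. These genes passed the minimum only through the control library in which they were higher.

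The medians of 8 lists also had opposite signs. They were 0.25 in the control and -0.0046 with IL-6 for histones, 0.18 and -0.06 for MHC class II, -0.082 and 0.074 for monocyte and macrophage genes, and 0.20 and -0.14 for myeloid progenitor and lineage factors. For cytosolic ribosomal proteins they were -0.021 and 0.023, for mitochondrially encoded genes of oxidative phosphorylation -0.16 and 0.01, for the BCL2 family 0.14 and -0.02, and for iron handling 0.20 and -0.24.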

How the results depend on the processing

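The control counts and the limma counts depend on the settings, and the 2-fold counts have no test. Genes higher and lower in the control numbered 123 and 10 as reported, 80 and 33 with equal library medians, 1081 and 429 with no level minimum, 576 and 130 at a minimum level of 1, 54 and 4 at 30, and 628 and 159 at a fold of 1.5. On log2(level + 1), 6 were lower. Both earlier forms of the level recovery were added after seeing the data: without the step for a single library at the floor 30 were lower and 85.9% of calls had the same direction in the IL-6 interval, and with the first form of the recovery 25 and 84.7%. A minimum level set on the 48 h libraries, also added after seeing the data, gave 134 higher and 9 lower. That share was 74.9% at a level of 1, 100% (58 of 58) at 30 and 87.0% at a fold of 1.5, against 94.7% as reported.

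limma called 274 higher and 44 lower as reported, 0 and 0 with no variance trend, 179 and 116 with equal medians, 619 and 220 without the 48 h libraries, 140 and 12 with no level minimum and 116 and 11 with no agent term. It called 99 lower at a minimum level of 10 and 68 lower on log2(level + 1). So the calls rest on the variance trend, with 2 residual degrees of freedom. No genes are counted as shared between these settings. The causes were not tested.

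List medians were set against the spread between the control and IL-6 medians. Equal library medians reversed 4: metallothioneins and zinc (-0.15), BCL2 family (-0.021), matrix proteases (-0.12) and housekeeping (-0.080). A minimum level of 1 also reversed matrix proteases (-0.0043). With equal medians the values moved to -0.67 for replication, 0.69 for mitosis, 0.29 for cell cycle exit, 0.00043 for NF-kB, 0.22 for interferon, 0.16 for MHC class I, -0.24 for monocyte and macrophage, 0.057 for lysosome, 0.016 for autophagy and 0.13 for synthetases. They moved to 0.073 for glycolysis, 0.067 for arrestins, 0.69 for fatty acids, 0.13 for LXR targets, -0.17 for ER chaperones, -0.22 for NRF2, 0.23 for the clock, -0.18 for ribosomal proteins, -0.36 for nuclear and -0.32 for mitochondrial oxidative phosphorylation and 0.23 for integrins. At a level of 1 they were -0.50 for replication, 0.81 for mitosis, 0.51 for interferon, 0.068 for phagocyte oxidase, 0.15 for autophagy, 0.27 for glycolysis and 0.33 for LXR targets. On log2(level + 1) they were -0.50 for replication, 0.77 for mitosis and 0.28 for LXR targets.

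No paired analysis was possible because the labels carry no replicate numbers to use as a block, and with 1 library per condition no replicate was left out. The agent term already compares times within each culture, and its removal gave the 116 and 11 above. Depth is unknown, so no counting error can be given.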
